A study of Mus musculus with 24 samples.

Results

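Complement genes were followed in mammary glands and mammary tumors of female mice at 4 ages. The 9 genes were C1qa, C1qb, C1qc, C1ra, C2, C3, C4b, Cfb and Serping1, taken as the rows of the deposited count table whose Ensembl identifiers carry these symbols in GENCODE M1. All 9 had 1 row each among the 37991 genes of the table. PyMT mice were F1 females of the FVB/N strain, heterozygous for a transgene that expresses the polyoma virus middle T antigen from the MMTV long terminal repeat, a promoter restricted to mammary epithelium, and they develop mammary tumors. FVB mice were homozygous females of the same strain without the transgene. Each genotype had 3 mice per age, and the ages were 6, 8, 10 and 12 weeks, for 24 samples in 8 groups. In PyMT mice these ages span the course from hyperplasia to late carcinoma. RNA came from whole frozen tissue with all its cell types, so that fewer cells of a type and less RNA per cell cannot be told apart.

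Complement is a cascade of plasma proteins that marks targets for uptake by phagocytes and calls in inflammatory cells. The classical pathway starts when C1q, a protein built of A, B and C chains, binds its target and turns on the proteases C1r and C1s, which then cleave C4 and C2 into an enzyme that cleaves C3. The alternative pathway uses factor B (Cfb) and factor D (Cfd) to cleave C3, and the C1 inhibitor Serping1 blocks C1r and C1s. Most circulating complement is made by the liver, whereas C1q is made mainly by macrophages and related myeloid cells, and fibroblasts and adipocytes also make several components.

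Total counts per sample ran from 6969375 to 13516601. In 11 libraries (6 PyMT, 5 FVB) more genes had 12 to 25 counts than had somewhat fewer, a peak that lay at 0.962 to 3.25 CPM (counts scaled to the library total). These are called libraries with grouped reads below, and a count of 0 or a low count in them is less certain than counting error alone gives. The skeletal muscle gene Acta1 was above 100 CPM in 9 libraries, 4 of PyMT (110 to 791 CPM) and 5 of FVB (241 to 8924 CPM). The labelled tissue carried its markers, since the summed normalized counts of 7 luminal epithelial markers spanned 20749 to 39614 over the PyMT samples and 4243 to 18850 over the FVB samples. Normalized counts are counts divided by DESeq2's size factors.

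C1ra, C3, Serping1 and C2 were lower in PyMT than in FVB tissue, and the 3 chains of C1q and C4b were not called as changed at any week. Of the 9 genes, 8 passed the filter on low counts (at least 1 CPM in at least 12 of the 24 samples), and Cfb did not. A gene was called differentially expressed (DEG) when its fold change was above 2 and its adjusted p in edgeR's quasi-likelihood test was under 0.05. By this rule 2 of the 8 genes were lower at week 6 (C3 and Serping1), where 6.46% of all tested genes were called lower and 10.0% in either direction. At week 8 only C3 was called lower, against 6.37% of all genes (9.95% in either direction). At week 10 C1ra, C3 and Serping1 were called lower against 9.09% of all genes (13.9% in either direction). The week 12 calls were C1ra, C2, C3 and Serping1, against 13.0% (20.7% in either direction). In the fit of all 24 samples with week as a block, the same 4 genes as at week 12 were called lower, where 17.2% of all genes were, and 25.7% in either direction. None of the 8 was called higher in these fits, where 3.58%, 3.57%, 4.83% and 7.75% of all genes were called higher at weeks 6, 8, 10 and 12, and 8.51% in the blocked fit. The median log2 fold change of the 8 genes in the blocked fit was -1.15, and that of all 14918 tested genes was -0.03. The 4 calls of the blocked fit were also made without the 9 libraries rich in Acta1 and without the 11 libraries with grouped reads. The first of these fits has no PyMT sample of week 6, and the second has none of week 6 and no FVB sample of week 10, so that they compare the genotypes at weeks 8, 10 and 12 and at weeks 8 and 12.

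**Figure D1:**
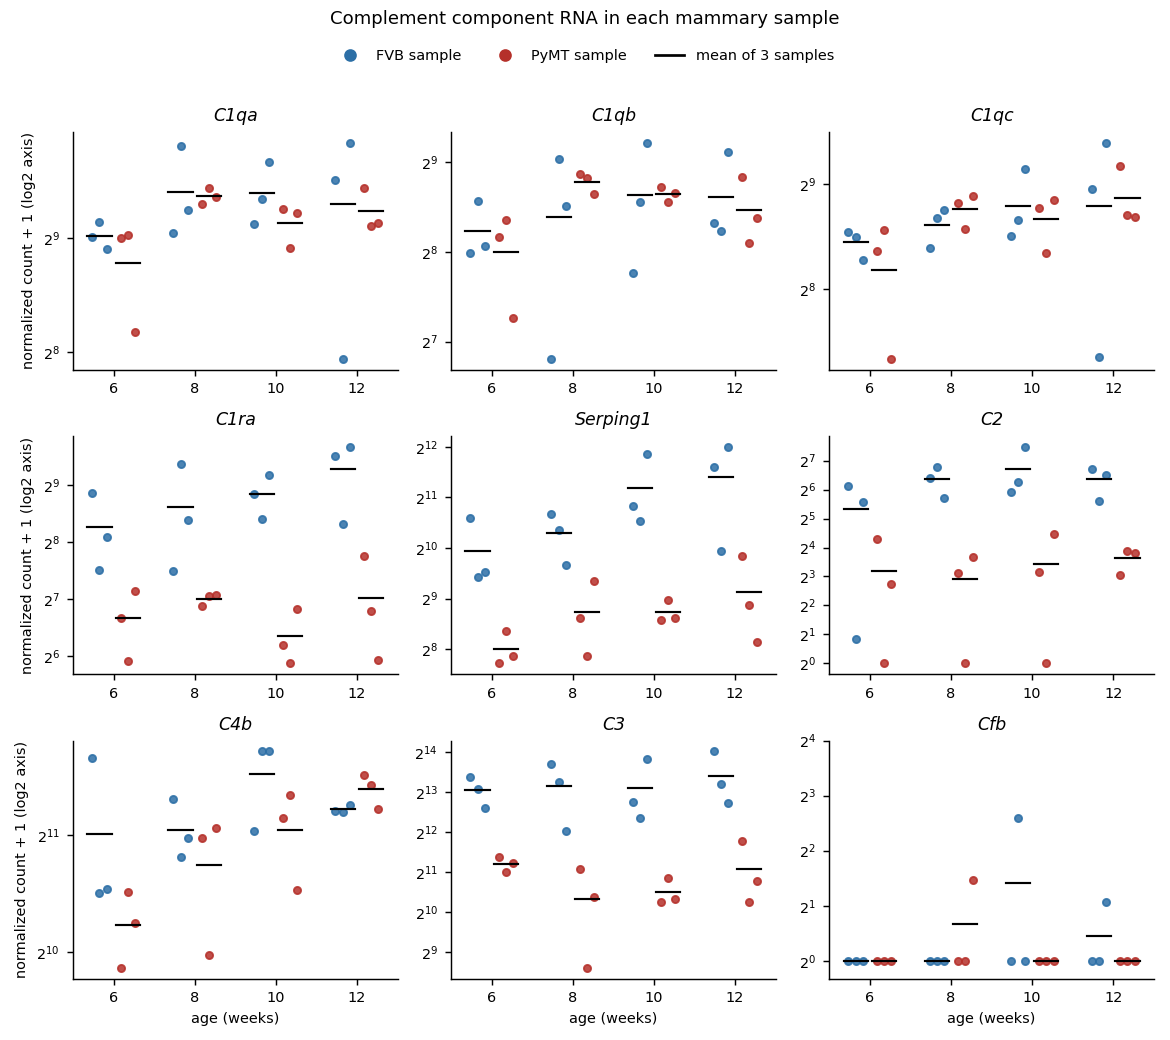
Normalized count plus 1 (log2 axis) of the 9 genes against age in weeks, with 1 point per sample, FVB in blue and PyMT in red, and a black line at the mean of each group of 3. The C3, C1ra and Serping1 points of PyMT lie below those of FVB of the same week at all 4 weeks. The share of all genes with this pattern was not counted. The C1q chains of both genotypes overlap at every week, and Cfb has a count in only 3 samples.

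The 3 chains of C1q lie beside each other on the minus strand of chromosome 4 (mm9). C1qb is at chr4:136436044-136442102, C1qc at chr4:136445719-136448980 and C1qa at chr4:136451832-136454718. C1qa encodes the A chain, and its normalized counts at week 6 were 513, 520.4 and 289 in PyMT, against 516, 566 and 478 in FVB. At week 12 they were 694, 551 and 563 in PyMT and 728, 244 and 917 in FVB. The week 12 FVB samples lay both above and below all the PyMT samples. Over the 12 samples of each genotype, C1qa had a median of 579 in PyMT (289 to 695) and 587 in FVB (244 to 917). C1qb, the B chain, had a median of 389 in PyMT (153 to 466) and 341 in FVB (111 to 596). C1qc, the C chain, had a median of 413 in PyMT (160.0 to 576) and 387 in FVB (163 to 674).

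No C1q chain had a PyMT group wholly above or below the FVB group at any of the 4 weeks. In the blocked edgeR fit the log2 fold change of C1qa was -0.13 (95% confidence interval -0.44 to 0.18, adjusted p = 0.479). That of C1qb was 0.02 (-0.39 to 0.44, adjusted p = 0.932), and that of C1qc was -0.03 (-0.38 to 0.33, adjusted p = 0.915). The ends of these intervals lie within a 2-fold difference in either direction. The sign of these small values depended on the scaling: scaled by library size alone, under which the median of all genes shifted by 0.29, C1qa was at 0.17 and C1qc at 0.29. At single weeks the log2 fold changes of the 3 chains ran from -0.29 for C1qc at week 6 to 0.41 for C1qb at week 8, and none passed the test.

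The ratio of the C chain to the A chain varied little between samples. The counts of C1qc over those of C1qa were 0.697 ± 0.083 in PyMT and 0.653 ± 0.073 in FVB (SD, n = 12 each). C1qb over C1qa was 0.634 ± 0.084 in PyMT (n = 12) and 0.591 ± 0.243 in FVB (n = 12). The wider spread of C1qb in FVB included replicate 1 of week 8, at 111 normalized counts against 527 and 364 in the other two. It also included replicate 2 of week 12, in which C1qa and C1qc were lowest and C1qb was near replicate 1. Across the 12 PyMT samples, log2 values of C1qa and C1qb correlated with r = 0.92 and those of C1qa and C1qc with r = 0.94, and across the 12 FVB samples with r = 0.52 and r = 0.94. These correlations are descriptions over samples that share library and depth with the genes compared.

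The stretch of 250 bases before the start of a gene was taken from RefSeq (GRCm38.p6) for the 4 of the 9 genes listed there, C1qb, C1qc, C1ra and C3. It was searched on both strands for 5 motifs: GAGGAA, the core bound by the myeloid factor PU.1, TTGCNNAA, bound by C/EBP factors, the ISRE core of interferon-responsive genes, the STAT element TTCNNNGAA, and the TATA box TATAAA. Of 32851 stretches of the same kind, 23.3% held GAGGAA, 9.56% TTGCNNAA, 2.98% the ISRE core, 7.02% TTCNNNGAA and 12.4% TATAAA. Both C1q stretches, at chr4:136886201-136886450 and chr4:136892915-136893164 on the minus strand, held GAGGAA once, shown in capitals, and none of the other motifs. They are shown because the data bear on these 2 neighbours as a pair without a called difference between genotypes.
C1qb: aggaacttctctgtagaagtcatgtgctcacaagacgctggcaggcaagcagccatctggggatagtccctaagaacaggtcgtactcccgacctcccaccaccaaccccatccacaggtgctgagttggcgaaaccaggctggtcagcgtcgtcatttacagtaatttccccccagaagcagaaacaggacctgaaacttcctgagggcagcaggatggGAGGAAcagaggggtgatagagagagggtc
C1qc: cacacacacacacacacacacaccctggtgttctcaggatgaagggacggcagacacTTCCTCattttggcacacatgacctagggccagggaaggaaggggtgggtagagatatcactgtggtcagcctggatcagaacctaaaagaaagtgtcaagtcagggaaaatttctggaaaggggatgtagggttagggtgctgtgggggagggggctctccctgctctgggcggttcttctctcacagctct
The match lay 30 to 25 bases before the start of C1qb. In C1qc it lay 193 to 188 bases before the start, on the opposite strand, and is printed as TTCCTC. Such matches describe letters and say nothing on the binding of a factor.

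C1ra, which encodes the protease C1r, and Serping1, which encodes its inhibitor, had all PyMT values below all FVB values of the same week. C1ra (chr6:124462423-124473458, plus strand) had normalized counts of 101, 59.4 and 140.1 in PyMT, against 465, 180.5 and 270.5 in FVB at week 6. Its week 8 values were 116, 131 and 134 in PyMT and 178, 658 and 332 in FVB. Every PyMT sample was below every FVB sample of its week, and at week 8 the lowest FVB sample came close. At week 10 they were 72.1, 57.6 and 112 in PyMT, against 455, 337 and 573 in FVB. At week 12 they were 215, 110.05 and 60.1 in PyMT and 729, 319 and 809 in FVB. The groups did not overlap at any of the 4 weeks, and over all weeks 11 of the 12 PyMT samples were below the lowest FVB sample. The share of all tested genes that were apart within weeks in this way was not counted, here or for Serping1, C2 and Gpr77. It was at least 7.22% with PyMT lower and 4.67% with PyMT higher, the shares apart over all 12 against 12 samples. The log2 fold changes of C1ra were -1.60, -1.60, -2.44 and -2.23 at weeks 6, 8, 10 and 12. Those of weeks 10 and 12 were called by edgeR's quasi-likelihood test (adjusted p = 0.00424 and 0.0124), and those of weeks 6 and 8 were not (adjusted p = 0.0642 and 0.0639). Over all weeks the value was -1.98 ± 0.25 (SE), 3.93-fold lower in PyMT (adjusted p = 5.88e-07). At week 12 the call was lost without PyMT replicate 2 (adjusted p = 0.0529). Nearly all reads of the C1r pair were counted on C1ra, since the near-identical copy C1rb had at most 20 counts in a sample, and how reads were split between the copies is uncertain.

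The stretch before the start of C1ra is chr6:124512371-124512620 on the plus strand of GRCm38.p6. None of the 5 motifs was found in these letters, and it is shown beside those of C1q because its RNA was called lower in PyMT, whereas no difference was called for theirs.
C1ra: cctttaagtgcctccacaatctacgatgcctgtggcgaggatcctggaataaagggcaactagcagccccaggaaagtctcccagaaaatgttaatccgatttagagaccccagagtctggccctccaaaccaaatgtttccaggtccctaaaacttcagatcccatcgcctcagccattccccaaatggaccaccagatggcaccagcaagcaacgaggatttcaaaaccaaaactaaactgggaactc

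Serping1 (chr2:84605544-84615601, minus strand) had normalized counts of 210.1, 326 and 233 in PyMT, against 1536, 690.3 and 735 in FVB at week 6. At week 8 they were 391, 232 and 649 in PyMT, against 1635, 1308 and 807 in FVB. At both weeks all 3 PyMT samples were below all 3 FVB samples. At week 10 they were 383, 503 and 392 in PyMT, against 1819, 1483 and 3715 in FVB. At week 12 they were 920.1, 469 and 280.0 in PyMT and 3093, 978 and 4083 in FVB. The gap was narrowest at week 12, where the highest PyMT sample came just below the lowest FVB sample, and 11 of the 12 PyMT samples were below the lowest FVB sample of any week. The log2 fold changes were -1.96, -1.53, -2.40 and -2.25 at weeks 6, 8, 10 and 12, with adjusted p of 0.0112, 0.0562, 0.00339 and 0.0201 in edgeR's test, so that all but week 8 were called. Over all weeks Serping1 was 4.13-fold lower in PyMT (log2 fold change -2.05 ± 0.25, SE, adjusted p = 3.01e-07). Single samples decided some weeks: the week 6 call was lost without PyMT replicate 1 or 3 (adjusted p = 0.0545 and 0.0535). That of week 12 was lost without PyMT replicate 2 or 3 or FVB replicate 3 (adjusted p of 0.0587 to 0.0781). The ratio of Serping1 to C1ra counts was 4.16 ± 1.96 in PyMT and 4.22 ± 1.99 in FVB (SD, n = 12 each).

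C2 (chr17:34999549-35035397, minus strand), the protease that joins C4 in the C3-cleaving enzyme, was a low gene. Its normalized counts at week 6 were 18.7, 0 and 5.67 in PyMT, against 69.5, 0.77 and 46.7 in FVB. At week 8 they were 7.63, 0 and 11.8 in PyMT, against 84.5, 108 and 52.0 in FVB. At week 10 they were 8.01, 0 and 21.3 in PyMT and 58.9, 75.1 and 177 in FVB. The groups were apart at weeks 8 and 10 and overlapped at week 6, through FVB replicate 2. At week 12 they were 7.20, 13.9 and 12.9 in PyMT and 105, 47.9 and 89.7 in FVB, again without overlap. The 3 PyMT libraries at 0 were replicate 2 of weeks 6, 8 and 10, and all had grouped reads. In them 1.26% to 2.87% of 3799 moderately expressed genes (median of 10 to 30 CPM) were also at 0. The FVB sample at 0.77, replicate 2 of week 6, had grouped reads too. Among the 13 libraries without grouped reads, C2 had 8 to 25 counts in the 6 PyMT libraries and 38 to 93 in the 7 FVB libraries. The log2 fold changes were -2.24, -3.57, -3.30 and -2.77 at weeks 6, 8, 10 and 12, and edgeR's test called only week 12 (adjusted p = 0.458, 0.102, 0.135 and 0.013). That call was lost without FVB replicate 1 or 3 (adjusted p = 0.0596 and 0.0564) and when all 24 samples shared a fit (adjusted p = 0.164). In the blocked fit C2 was 7.91-fold lower in PyMT (log2 fold change -2.98, 95% confidence interval -4.35 to -1.62, adjusted p = 5.64e-04), and without the libraries with grouped reads it was at -2.74 and still called.

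Cfb (chr17:34993319-34999463, minus strand), the factor B of the alternative pathway and the next gene to C2, had 9 counts in all 24 samples together. These were 3 counts in PyMT week 8 replicate 3, 5 in FVB week 10 replicate 2 and 1 in FVB week 12 replicate 3. In the other 21 samples it was at 0, which allows 3 counts, or 0.222 to 0.430 CPM over the libraries, as far as counting error goes. Of these 21, 10 had grouped reads and 11 did not. Of the 2825 exonic bases of Cfb in GENCODE M1, 2246 (79.5%) also belong to Gm20547 on the same strand, a gene model that shares exons with both C2 and Cfb and was at 0 in all 24 samples. Of the 4059 exonic bases of C2, 1656 (40.8%) belong to it too. How reads on shared exons were counted is not stated, and the part of this overlap in the low levels was not tested. No comparison between genotypes was made for Cfb.

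C4b (chr17:34865325-34880827, minus strand) encodes C4, whose larger fragment joins C2 in the C3-cleaving enzyme. Its normalized counts at week 6 were 932, 1464 and 1212 in PyMT, against 3230.1, 1453 and 1491 in FVB. At week 8 they were 2008, 1008 and 2129 in PyMT, against 2534, 1793 and 2015 in FVB. At week 10 they were 2268, 2598 and 1475 in PyMT and 2093, 3359.7 and 3361 in FVB. The groups overlapped at each of these weeks. At week 12 they were 2930.0, 2756 and 2395 in PyMT and 2357, 2349 and 2450.5 in FVB, a close group of 3 within or below the PyMT range. The log2 fold changes were -0.79, -0.28, -0.42 and 0.22 at weeks 6, 8, 10 and 12, with adjusted p of 0.185, 0.623, 0.349 and 0.332 in edgeR's test. Over all weeks the value was -0.33 (95% confidence interval -0.67 to 0.01, adjusted p = 0.0988), and without the 11 libraries with grouped reads it turned to 0.16 (adjusted p = 0.577). That fit compares the genotypes at weeks 8 and 12 only, so that leaving out weeks and leaving out grouped reads cannot be told apart. The neighbouring copy C4a had 0 to 55 counts a sample, and its counts were on average 0.0159 of those of C4b in PyMT and 0.00978 in FVB, so that nearly all reads of the pair were counted on C4b. How reads were divided between these near-identical copies is uncertain.

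C3 (chr17:57343397-57367559, minus strand), on which all pathways of complement meet, was the one gene of the 9 whose 12 PyMT values were all below its 12 FVB values. Over all tested genes, 7.22% had such a pattern, and 4.67% had all PyMT values above all FVB values. At week 6 the normalized counts of C3 were 2660.1, 2041 and 2417 in PyMT, against 10670, 8713 and 6219 in FVB. At week 8 they were 2151, 390.0 and 1341 in PyMT and 13360, 9858 and 4174 in FVB. The lowest of all 24 values was PyMT week 8 replicate 2, a library with grouped reads. At week 10 they were 1231, 1837 and 1277 in PyMT, against 6904, 5264 and 14493 in FVB. At week 12 they were 3524, 1213 and 1756 in PyMT and 16676, 9412 and 6810 in FVB. The highest PyMT sample, week 12 replicate 1, stayed below the lowest FVB sample, week 8 replicate 3. C3 was called lower at all 4 weeks by edgeR's test, with log2 fold changes of -1.85, -2.79, -2.56 and -2.30 and adjusted p of 0.00442, 0.0356, 0.00434 and 0.0075. Over all weeks it was 5.25-fold lower in PyMT (log2 fold change -2.39 ± 0.27, SE, adjusted p = 7.28e-08), and without the libraries with grouped reads it was at -2.44 (adjusted p = 3.67e-04). At week 8 the call was lost without PyMT replicate 1 or 3 or FVB replicate 1 or 2, with adjusted p of 0.0607 to 0.107.

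The stretch before the start of C3, chr17:57228137-57228386 on the minus strand of GRCm38.p6, held 1 of the 5 motifs. This was TTGCNNAA, matched 45 to 38 bases before the start and shown in capitals. C3 is shown as the gene with the clearest difference between genotypes.
C3: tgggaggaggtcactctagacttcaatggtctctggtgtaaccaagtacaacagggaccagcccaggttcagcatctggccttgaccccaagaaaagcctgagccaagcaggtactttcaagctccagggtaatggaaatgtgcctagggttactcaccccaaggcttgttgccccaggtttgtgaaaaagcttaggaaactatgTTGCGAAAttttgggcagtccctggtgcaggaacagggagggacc

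**Figure D2:**
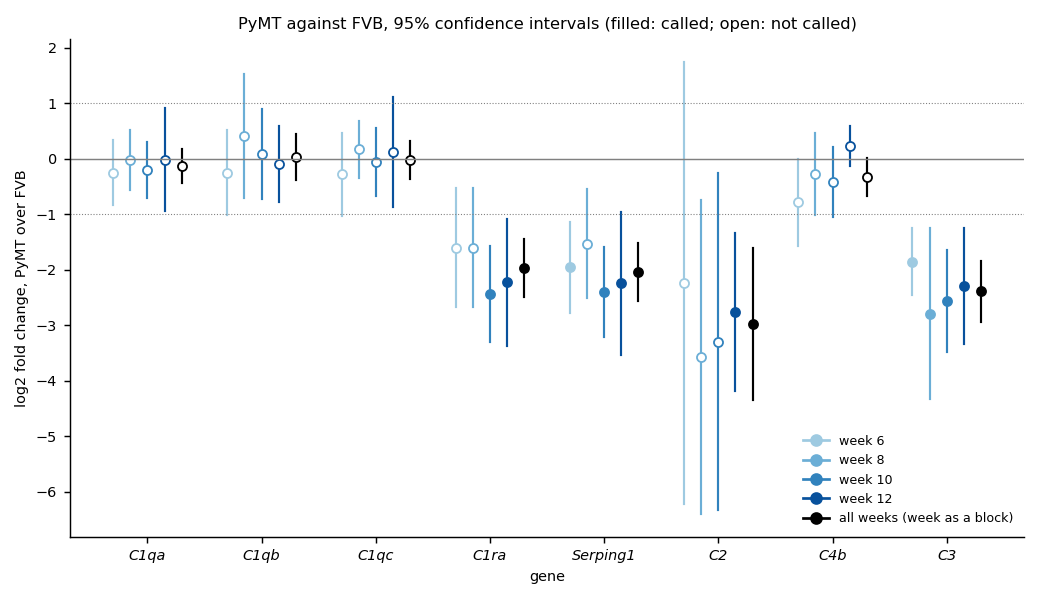
Log2 fold change of PyMT over FVB for the 8 tested genes at each week and over all weeks, with 95% confidence intervals, filled where called and open where not, and dotted lines at a fold of 2. The estimates of C1ra, Serping1, C2 and C3 lie below 0 in all 5 fits, with an interval that crosses 0 for C2 at week 6. The intervals of the 3 C1q chains, whose signs change with the scaling, span 0 in all 5 fits. That of C4b ends just below 0 at week 6 and spans 0 in the other fits.

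Per kilobase of exon, the order of the 9 genes differed between the genotypes. In FVB, C3 was first with a mean of 1828 ± 753 normalized counts per kilobase (SD, n = 12), followed by Serping1 with 784 ± 502 and C1qa with 601 ± 184. In PyMT, C1qa was first with 545 ± 108, followed by C3 with 355 ± 160 and C4b with 339 ± 122 (SD, n = 12). C4b, C1qb, C1qc, C1ra, C2 and Cfb followed in this order in FVB, with means of 417, 327, 210.3, 147, 18.8 and 0.18 normalized counts per kilobase. In PyMT the order after C4b was C1qb, C1qc, Serping1, C1ra, C2 and Cfb, with means of 333, 207, 179, 36.3, 2.20 and 0.052. In FVB C3 stood above Serping1 by more than either SD, whereas Serping1 and C1qa lay within 1 SD of each other and C1qa and C4b about 1 SD apart. In PyMT C3, C4b and C1qb could not be ordered beyond their spread. The order also differed between weeks: in PyMT C3 was first at week 6 with 462 against 424 for C1qa and behind C1qa, C1qb and C4b at weeks 8 and 10, and in FVB C1qa rather than Serping1 was second at weeks 6 and 8. C4b had 0.291 ± 0.145 counts per count of C3 in FVB and 1.30 ± 0.69 in PyMT (SD, n = 12 each).

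The course over age showed no called change. Whether the PyMT against FVB difference itself moved was tested between weeks 6 and 12 and between weeks 8 and 10, in edgeR fits of all 24 samples, and 0 of the 8 genes were called in either (over all 14918 genes 0 and 1, the latter 0.00670%). At an unadjusted p under 0.05 there was 1 of the 8 genes between weeks 6 and 12, against 691 of all genes, and 0 between weeks 8 and 10, against 533. The 1 gene was C4b, whose difference moved by 1.00 on the log2 scale (95% confidence interval 0.08 to 1.92, unadjusted p = 0.035). Within PyMT, C4b averaged 1203 ± 266, 1715 ± 615, 2114 ± 577 and 2694 ± 273 normalized counts at weeks 6, 8, 10 and 12 (SD, n = 3 each). All 3 values of week 12 were above all 3 values of week 6, and the share of all tested genes with such a separation was not counted. Week 12 against week 6 in PyMT gave a log2 fold change of 1.17 for C4b, which edgeR's test did not call (adjusted p = 0.251), DESeq2 did (1.16, adjusted p = 0.0357) and limma voom with sample weights did (1.27, adjusted p = 0.0281). All 3 PyMT libraries of week 6 and 1 of week 12 had grouped reads, and the 3 of week 6 were rich in Acta1, and the part of these in the difference was not tested. In FVB, C4b had means of 2058, 2114, 2938 and 2386 at weeks 6, 8, 10 and 12.

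Serping1 had higher means at week 12 than at week 6 in both genotypes, and neither difference passed edgeR's test. The log2 difference was 1.12 in PyMT (adjusted p = 0.687) and 1.42 in FVB (adjusted p = 1.00), from means of 256 to 556 and of 987 to 2718 normalized counts. The count of genes called was 0 of 8 in each genotype and 0 over all genes, with 2 of the 8 (C4b and Serping1) at an unadjusted p under 0.05 in PyMT and 1 (Serping1) in FVB. Over all genes, 1004 and 625 had such a p. When weeks 10 and 12 of PyMT were set against weeks 6 and 8, 0 of 8 genes were called and C4b alone had an unadjusted p under 0.05 (log2 fold change 0.73, unadjusted p = 0.00333), where 798 of all genes did.

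Markers of cell types that can make complement also differed between the genotypes. The summed normalized counts of 13 macrophage markers spanned 3770 to 6732 over the PyMT samples and 3749 to 7098 over the FVB samples, and in the blocked fit 0 of the 13 were called higher and 1 lower, with a median log2 fold change of 0.14. They did not move as one: at week 10, 1 was called higher (Mpeg1) and 3 lower (Csf1r, Mrc1 and Cd163). In the blocked fit Cd14 (0.94) and Mpeg1 (0.85) lay above 0 and Csf1r (-0.67) and Mrc1 (-0.87) below it, with adjusted p under 0.05 and a fold under 2. None of the 13 was at 0 throughout, and Fcgr1 was at 0 in 5 samples. The sums of 11 fibroblast markers were 22186 to 46665 in PyMT, against 55070 to 191880 in FVB, and all 11 were called lower, with a median log2 fold change of -2.05. The sums of 10 adipocyte markers were 1708 to 23271 in PyMT, against 69777 to 186810 in FVB, and all 10 were called lower, with a median of -4.01. All 6 endothelial markers were called lower too, with a median of -2.39. The blocked log2 fold changes of C1ra (-1.98), Serping1 (-2.05) and C3 (-2.39) can be read beside these 3 lists, which all moved in the same direction. That direction was not particular to them. All 7 skeletal muscle markers (median -4.79) and 3 of 6 basal epithelial markers (median -1.35) were called lower in the blocked fit. Of the 7 luminal epithelial markers, 6 were called higher (median 1.72). The part of these cell types in the differences was not tested.

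Within each genotype, log2 values of the 8 genes were compared with the mean of the macrophage, fibroblast and adipocyte markers over 12 samples, which made 48 relations. With two-sided permutation tests of 100000 resamples and Benjamini-Hochberg adjustment, 3 relations had an adjusted Pearson p under 0.05, all in PyMT. C1qc followed the macrophage markers with r = 0.83 (adjusted permutation p = 9.6e-04, n = 12) and rho = 0.99 (adjusted permutation p = 4.8e-04). Leaving out the pair of samples with the most extreme marker means gave r = 0.88. C1qa followed them with r = 0.77 (adjusted permutation p = 0.0197, n = 12) and rho = 0.75 (adjusted permutation p = 0.0907), with r = 0.66 when that pair was left out. C3 followed the adipocyte markers with r = 0.82 (adjusted permutation p = 0.0422, n = 12) and rho = 0.75 (adjusted permutation p = 0.0907), with r = 0.63 when that pair was left out. The pair included PyMT week 8 replicate 2, a library with grouped reads that was lowest in both C3 and the adipocyte markers. For C3 with the adipocyte markers in FVB, r was 0.07 (adjusted permutation p = 0.919, n = 12). For Serping1 with them in FVB, r was 0.72 (adjusted permutation p = 0.0878, n = 12). In FVB the r of the C1q chains with the macrophage markers was 0.30 to 0.43, with adjusted permutation p of 0.345 to 0.530 (n = 12). With the fibroblast markers in FVB it was 0.68, 0.70 and 0.69 for C1qa, C1qb and C1qc (adjusted permutation p of 0.0933 to 0.103, n = 12). In PyMT these values were -0.17, -0.18 and 0.03. C1ra and Serping1 had r of 0.43 and 0.71 with the fibroblast markers in PyMT and of 0.68 and 0.40 in FVB, none past the threshold after adjustment (permutation tests, adjusted p of 0.0878 to 0.357). With the mean of each week removed and samples reordered within weeks only, 0 of the 48 relations had an adjusted p under 0.05. The r within weeks in PyMT was then 0.73 for C1qc (exact permutation p = 0.00694, adjusted p = 0.296, n = 12) and 0.63 for C1qa (exact permutation p = 0.0309, adjusted p = 0.296, n = 12) with the macrophage markers. For C3 with the adipocyte markers it was 0.84 (exact permutation p = 0.0301, adjusted p = 0.296, n = 12), although the 3 samples of week 6 ran the other way. For C4b and Serping1 with the adipocyte markers in PyMT, r before removing week means was 0.06 and 0.11 (adjusted permutation p = 0.922 and 0.849, n = 12). Within weeks it was 0.83 (exact permutation p = 0.0301, adjusted p = 0.296, n = 12) and 0.67 (exact permutation p = 0.0478, adjusted p = 0.328, n = 12). The r within weeks was not computed without PyMT week 8 replicate 2. The difference in r between the genotypes was not tested.

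**Figure D3:**
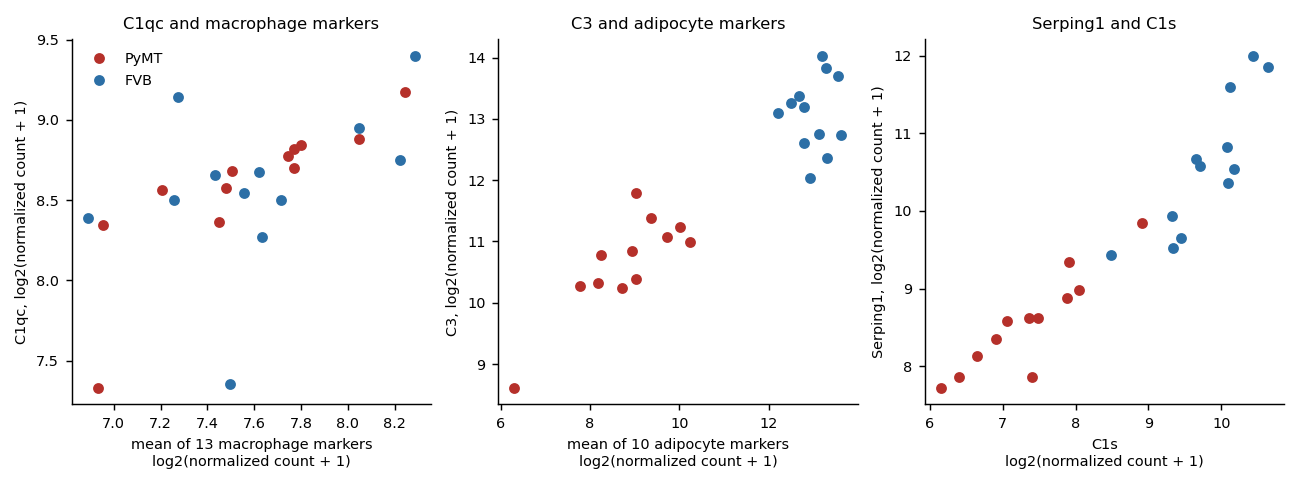
Log2(normalized count + 1) per sample of C1qc against the mean of 13 macrophage markers, C3 against the mean of 10 adipocyte markers, and Serping1 against C1s, with 12 PyMT samples in red and 12 FVB samples in blue. The genotypes overlap in the first panel and lie in separate groups in the second, and in the third the samples of both genotypes lie along a line.

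The genes with the most similar profiles over the 24 samples, by Pearson's r of log2(normalized count + 1) among 14910 tested genes outside the 8, were often myeloid for C1q. For C1qa and C1qc this was Lyz2, the lysozyme of myeloid cells (r = 0.86 and 0.83), and for C1qb it was Emr1, the macrophage antigen F4/80 (r = 0.86). For the mean of the 3 chains the 5 nearest were Lyz2 (r = 0.90), Fcgr3, a receptor for antibody (0.74), Ccr2, a chemokine receptor of monocytes (0.73), Tbccd1 (0.72) and Epsti1 (0.71). Within PyMT alone the r of Lyz2 with this mean was 0.96 and within FVB alone 0.89. For Serping1 the nearest was C1s (r = 0.95), the protease that Serping1 inhibits, for C1ra it was Pla1a, a phospholipase (r = 0.95), and for C3 it was Pnpla3, a lipid enzyme of fat and liver (r = 0.95). For C2 it was Rufy4 (r = 0.91) and for C4b it was Papolb (r = 0.80). Where a gene differs between genotypes, r over 24 samples includes that difference: for C3 and Pnpla3 it was 0.85 within PyMT and 0.68 within FVB.

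Of 43 other complement genes with a row in the table, 25 passed the filter. At week 6, 1 of the 25 was called higher and 2 lower, near the shares of all genes (3.58% and 6.46%). At week 8 these counts were 0 and 3 (all genes 3.57% and 6.37%), at week 10, 0 and 5 (4.83% and 9.09%), and at week 12, 1 and 9 (7.75% and 13.0%). In the blocked fit 2 were called higher and 13 lower (all genes 8.51% and 17.2%), with a median log2 fold change of -1.20. The counts at single weeks moved with the method and with single samples. The proteases C1s and C1rl of the classical pathway were lower. C1s, which partners C1r, had a median of 166 normalized counts in PyMT (70.3 to 481) and 957 in FVB (358 to 1596), and was called lower at all 4 weeks and in the blocked fit (log2 fold change -2.34, adjusted p = 1.61e-08). C1rl, a relative of C1r, was called at week 12 (-1.25, adjusted p = 0.0437) and in the blocked fit (-1.29, adjusted p = 0.00525). C1s shares 205 exonic bases with the neighbouring copy Gm5077 on the same strand and 576 with a gene model on the opposite strand. On either strand, 22.4% of its exonic bases are shared, so that its level is somewhat uncertain.

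Of the alternative pathway, Cfd and Cfp were called lower, and Cfb could not be compared. Cfd, which encodes factor D (adipsin), a product of fat cells, had a median of 1742 in PyMT (86.3 to 3797) and 18303 in FVB (6820 to 42234), again with no overlap between the 12 and 12 samples. It was called lower at weeks 6, 10 and 12, and in the blocked fit its log2 fold change was -3.49 (adjusted p = 1.64e-07). Cfp, properdin, which stabilizes the C3-cleaving enzyme, was called lower at weeks 10 and 12, with a blocked log2 fold change of -1.58 (adjusted p = 0.0011). Fcna, the ficolin A of the lectin pathway, was called lower at week 8 (log2 fold change -1.83, adjusted p = 0.0462).

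The terminal and receptor genes did not all move one way. Hc, which encodes C5 and of which FVB mice carry a deficiency allele, had a median of 29.5 in PyMT (0 to 79.1) and 219.9 in FVB (54.5 to 439.8), and its blocked log2 fold change was -2.84 (adjusted p = 4.75e-06). Vtn, Csmd1 and Cd59a, which restrain complement on surfaces or at its last step, were lower in the blocked fit (log2 fold changes of -2.73, -2.61 and -1.16). Other genes that restrain complement were not called: Cd55 was at 0.52 (adjusted p = 0.00664), Clu at 0.44 (adjusted p = 0.0112) and Cd46 at -0.18 (adjusted p = 0.743). Cr1l, a further gene of this kind, had a median of 390 in PyMT (234 to 474) and 454 in FVB (371 to 578). Of the 2 receptors for C5a, C5ar1 was lower (blocked log2 fold change -1.06, adjusted p = 0.00148) and Gpr77, also named C5ar2, was higher. Gpr77 had a median of 151 in PyMT (90.01 to 298) and 15.0 in FVB (0 to 106), with no overlap within any of the 4 weeks, and a blocked log2 fold change of 2.90 (adjusted p = 1.5e-05). It was called at weeks 6 and 12 by edgeR's test (adjusted p = 0.0437 and 0.00789). The copies C4a and C1rb gave little: C4a had a blocked log2 fold change of 0.30 (adjusted p = 0.708), and C1rb failed the filter, with a median of 0.45 in PyMT and 10.8 in FVB.

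**Figure D4:**
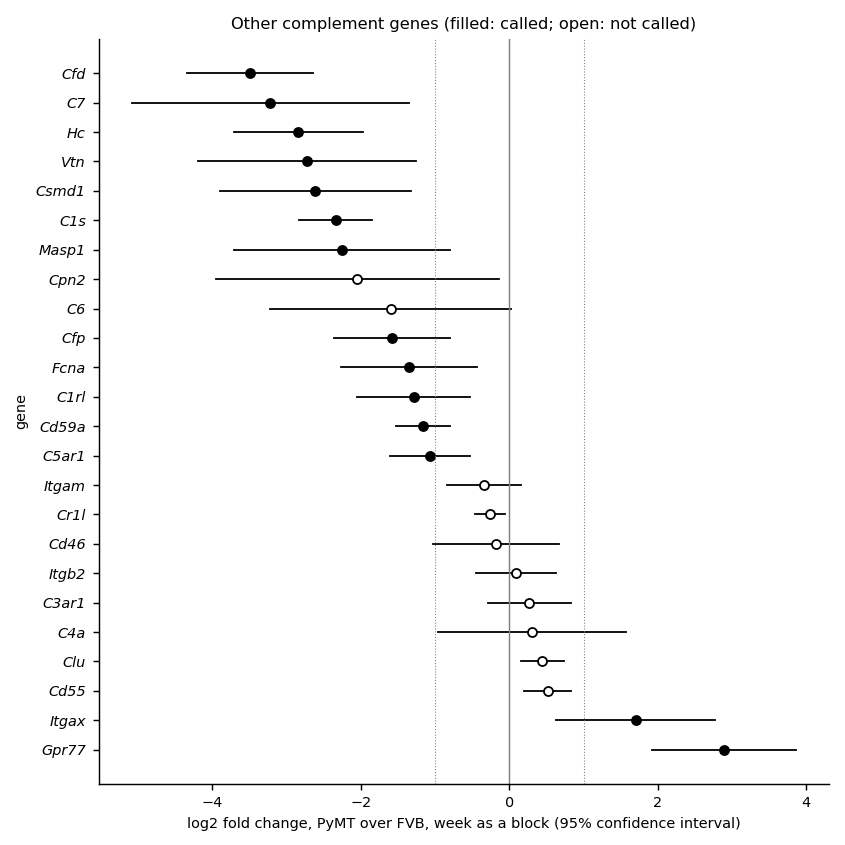
Blocked log2 fold change of PyMT over FVB with its 95% confidence interval for 24 of the 25 other complement genes that passed the filter, filled where called and open where not. Gpr77 and Itgax are the 2 genes called higher, and 12 of the genes drawn, from C5ar1 at -1.06 to Cfd at -3.49, are called lower.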

How the data were processed

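Total RNA of mammary tissue was sequenced from ribosome-depleted, strand-marking libraries. The authors aligned reads to mm9 with GSNAP took gene counts from HTSeq, and deposited these raw counts, 1 column per sample, with no normalization. The counting mode and annotation release are not given in the sources used here. Each count column belonged to 1 sample, and the number of columns not used was 0. Groups came from genotype and week. GENCODE M1, on the same build, gave symbols, coordinates and exon lengths.

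Counts were analysed with R 4.3.3, edgeR 4.0.16, DESeq2 1.42.0 and limma 3.58.1, and with Python 3.11.15. Genes with at least 1 CPM in at least 12 of the 24 samples were kept, which left 14918. PyMT and FVB samples were compared per week, and over all weeks with week as a block, by edgeR's quasi-likelihood test after TMM scaling. P-values were adjusted by Benjamini-Hochberg over all tested genes, and calls needed an adjusted p under 0.05 and a fold above 2. Changes between weeks used a fit of 8 groups, and tests of whether the genotype difference moved needed only the adjusted p. Correlations used log2(normalized count + 1). The fits were also run on simulated counts, which were drawn without grouped reads and so do not cover the effect of such reads. A library was said to have grouped reads when its histogram of counts over genes (smoothing SD 1.5) had a peak above 5 counts at least 1.5 times its lowest value at smaller counts. Limits at a count of 0 used 3 counts and cover counting error only.

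The 9 genes, the lists and the tests were chosen with earlier results of these data known. Named beside the 9 genes were the other complement genes called at 1 or more weeks (at most 12), of which 1 is not reported here, C1rb, C1s, C4a and Hc as copies or partners, the gene nearest in profile to each, the 5 nearest to the C1q mean, and cell type markers. Itgax, Gm5077, Cd55, Clu, Cd46 and Cr1l were named after their values were seen. C1s, Gpr77 and Emr1 are the older names that the table's annotation uses. Alternatives were DESeq2, RLE and library size scaling, other filters, limma voom with sample weights, a shared fit, a replicate block and each sample left out in turn. Leaving out libraries rich in Acta1, with grouped reads, or with the most zeros, and removing week means from the correlations, were added after seeing the data. Replicate numbers come from the sample names, and no source says that they pair PyMT with FVB mice.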

Additional observations from a re-analysis of the deposited data

How the results depend on the processing

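The 4 calls of the blocked fit (C1ra, C2, C3 and Serping1, all lower in PyMT) were made under each of its 34 alternatives, including the 3 that left out libraries rich in Acta1, with grouped reads or with the most zeros. Calls at single weeks were less stable, and the cause was not tested. At week 8, where the main count was 1, 4 genes were called lower by DESeq2, 2 with RLE size factors, 3 without a filter, 4 by limma voom and 3 when all 24 samples shared a fit. All genes called lower went from 6.37% to 11.0%, 6.64%, 5.09%, 10.7% and 9.21% in these settings. With each sample left out in turn the count ran from 1 to 2 at week 6 (1 without PyMT replicate 1 or 3) and from 0 to 1 at week 8 (0 without PyMT replicate 1 or FVB replicate 2). It was 3 throughout at week 10 and ran from 2 to 4 at week 12 (2 without PyMT replicate 2 or FVB replicate 3). For week 12 against week 6, where 0 were called, DESeq2 and limma voom called 1 in PyMT (C4b), and limma voom called 1 in FVB (Serping1, log2 fold change 1.82, adjusted p = 0.0293). DESeq2 called 0.503% of all genes higher in PyMT, and limma voom 0.168% in PyMT and 0.322% in FVB. Of 48 relations with marker means, 3 passed the adjustment, and 0 with the week means removed. Counts of other complement genes moved by over 1.5 times in 8 settings and 8 fits without 1 sample, all at single weeks or between weeks: at week 12 from 10 to 3 without FVB replicate 3, at week 8 from 3 to 1 without FVB replicate 2 and to 7 by limma voom. No other count of the 8 genes left its range of 1.5 times.

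Signs turned only for log2 fold changes near 0, none of them called. With library size in place of TMM, which raised the median of all genes by 0.27, 0.24, 0.29 and 0.32 at weeks 6, 8, 10 and 12, C1qa moved to 0.013, 0.20, 0.13 and 0.34, C1qc at week 10 to 0.27 and C1qb at week 12 to 0.22. In the blocked fit C1qa then stood at 0.17 and C1qc at 0.29, and all genes called higher and lower went from 1269 and 2571 to 2050 and 2002. C1qc in the blocked fit was at 0.0018 without a filter, 0.0015 with a weaker one and 0.035 without the 2 libraries with the most zeros. Without the libraries with grouped reads, C1qb was at -0.18, C1qc at 0.052 and C4b at 0.16. By limma voom C4b at week 8 was at 0.021, C1qc at week 10 at 0.18 and C1qc at week 12 at -0.10. With each sample left out in turn, C1qa ranged from -0.33 to 0.024, from -0.16 to 0.23 and from -0.44 to 0.36 at weeks 6, 8 and 12. C1qb ranged from -0.41 to 0.058, from -0.21 to 0.49, from -0.31 to 0.24 and, blocked, from -0.083 to 0.11 at weeks 6, 10 and 12 and over all weeks. C1qc ranged from -0.46 to 0.055, from -0.18 to 0.14, from -0.31 to 0.56 and, blocked, from -0.12 to 0.068 in the same fits. C4b ranged from -0.48 to 0.0064 at week 8, from -0.45 to 0.039 for the change of the difference from week 8 to 10, and from -0.023 to 0.68 for week 12 against week 6 in FVB. Serping1 ranged from -0.85 to 0.099 for the change of the difference from week 6 to 12.

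Deviations of PyMT and FVB samples with the same replicate number correlated with -0.02 to 0.18, above 0.1 in 4 of 12 pairs. Samples with different numbers correlated with -0.13 to 0.09, so that these 4 pairs were above all of them. No source states a pairing, and the main fits did not use the numbers. With a replicate block 2, 1, 3, 4 and 4 genes were called at weeks 6, 8, 10 and 12 and over all weeks, as without it, and only C1qa at week 8 (0.012), C1qa at week 12 (0.16) and C1qc over all weeks (0.001) changed sign. Counts of C2 and Cfb are low, and with 3 samples a group each single week gives wide intervals.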
